A study of Homo sapiens with 6 samples.

Results

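Integrins and laminins are the genes whose symbols carry the family prefix and a subunit code, 38 of the 61806 in the deposited expression table. They were chosen by symbol, not by level, and 37 of them are described here: 26 integrins (18 alpha and 8 beta subunits) and 11 laminin chains. Each of the 37 had at least 1 count in some library, and 21 of them, 15 integrins and 6 laminins, reached a mean of at least 1 FPKM (fragments per kilobase of exon, scaled to library size) over the libraries and were tested. The RNA, selected with oligo(dT), came from the Ishikawa line, established from a human endometrial adenocarcinoma. The groups were 3 TEFM libraries, from a derivative overexpressing TEFM, the mitochondrial transcription elongation factor, and 3 EV libraries, whose abbreviation the labels do not spell out. The labels give no treatment for either group. The sources used here do not say how TEFM was introduced, or whether the derivative is a clone or a mixed population. The submitters call the replicates biological and independent; p-values here rest on the spread among these 6 libraries and do not cover separate derivations of the line.

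Integrins are heterodimers of an alpha and a beta subunit that span the plasma membrane and tie the extracellular matrix to the cytoskeleton. Laminins are trimers of an alpha, a beta and a gamma chain that polymerise into basement membranes, the sheets on which glandular epithelia such as the endometrium rest. A trimer is named by its chain numbers, so that laminin 511 holds LAMA5, LAMB1 and LAMC1; LAMA3 and LAMB3 belong to the laminins of epithelial anchoring sites. Epithelial cells hold on to laminins through ITGA3 and ITGA6 paired with ITGB1, and through ITGA6 paired with ITGB4 in hemidesmosomes.

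The libraries held 14252668 to 17562807 counts in TEFM and 15092555 to 17891047 in EV. TEFM RNA was 22.7 to 24.0 FPKM in the TEFM libraries and 4.13 to 4.55 FPKM in the EV libraries. Of 10 markers of endometrial epithelium 8 were detected at a mean of at least 1 FPKM, EPCAM, PAX8 and the keratin genes KRT8, KRT18 and KRT19 among them. The list summed to 718 to 751 FPKM in TEFM and 548 to 599 FPKM in EV; its part in the rises of ITGB4, ITGA3, LAMA3 and LAMB3 was not tested. ESR1, the oestrogen receptor gene, had 3, 1 and 2 counts in TEFM and 0, 0 and 1 in EV, and the progesterone receptor gene PGR had 4, 3 and 5 in TEFM and 17, 5 and 18 in EV. Summed leukocyte markers stayed at 0.870 to 1.54 FPKM in TEFM and 1.01 to 1.11 FPKM in EV, with CD3E and TYROBP at 0 counts. Summed endothelial markers stood at 1.37 to 1.49 FPKM in TEFM and 0.790 to 0.940 FPKM in EV, with EMCN at 0 counts, and fibroblast markers at 1.91 to 2.79 FPKM in TEFM and 1.93 to 2.25 FPKM in EV, with DCN at 0 counts. The platelet list had 3 of its 4 genes (GP9, PF4 and PPBP) at 0 counts. Its remaining gene, GP1BA, reached a mean of at least 1 FPKM, with 80, 93 and 92 counts in TEFM and 72, 93 and 88 in EV. The 5 muscle genes summed to 2.63 to 3.77 FPKM in TEFM and 2.26 to 2.88 FPKM in EV. Fewer cells with a transcript and less of it per cell cannot be told apart in these bulk libraries.

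The promoters of LAMA3 and LAMB3 and of the chains of laminin 511 are shown first, because these groups of chains moved in opposite directions. The windows were thus picked by outcome, and LAMB2, which also rose, is not shown. Whether base content or motifs go with direction was not tested. Each line gives the 250 bases before a RefSeq start of the gene on GRCh38.p14, 5' to 3' on the strand of the gene, with AP-1 motifs (TGACTCA, on either strand) and GC boxes (GGGCGG, on either strand) in capitals. LAMA3 is at chr18:23872770-23873019 (plus strand; this start lies 183567 bases inside the gene as the deposited table bounds it), LAMB3 at chr1:209652426-209652675 (minus strand), LAMA5 at chr20:62367313-62367562 (minus strand), LAMB1 at chr7:108003162-108003411 (minus strand) and LAMC1 at chr1:183023170-183023419 (plus strand). The table of RefSeq promoters held an entry for 26 of the 37 genes.
LAMA3: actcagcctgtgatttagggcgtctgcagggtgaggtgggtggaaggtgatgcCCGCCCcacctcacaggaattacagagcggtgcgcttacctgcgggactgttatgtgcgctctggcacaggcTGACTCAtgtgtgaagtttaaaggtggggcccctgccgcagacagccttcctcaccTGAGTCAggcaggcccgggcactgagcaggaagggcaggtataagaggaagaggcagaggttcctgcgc
LAMB3: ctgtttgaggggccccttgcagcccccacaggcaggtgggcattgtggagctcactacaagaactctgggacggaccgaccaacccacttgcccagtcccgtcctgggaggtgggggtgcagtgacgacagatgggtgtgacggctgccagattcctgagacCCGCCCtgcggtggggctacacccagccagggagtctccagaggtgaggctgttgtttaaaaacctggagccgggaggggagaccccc
LAMA5: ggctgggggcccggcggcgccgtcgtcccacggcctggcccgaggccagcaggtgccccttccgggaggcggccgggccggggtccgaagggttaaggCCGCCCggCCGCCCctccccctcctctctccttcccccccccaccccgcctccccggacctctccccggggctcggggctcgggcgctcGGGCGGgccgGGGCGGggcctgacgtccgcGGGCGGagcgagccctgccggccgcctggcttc
LAMB1: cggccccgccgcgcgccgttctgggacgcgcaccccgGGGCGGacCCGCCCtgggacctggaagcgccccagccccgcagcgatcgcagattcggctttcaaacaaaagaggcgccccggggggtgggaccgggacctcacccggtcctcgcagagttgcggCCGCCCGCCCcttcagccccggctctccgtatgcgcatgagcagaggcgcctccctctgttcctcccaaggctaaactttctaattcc
LAMC1: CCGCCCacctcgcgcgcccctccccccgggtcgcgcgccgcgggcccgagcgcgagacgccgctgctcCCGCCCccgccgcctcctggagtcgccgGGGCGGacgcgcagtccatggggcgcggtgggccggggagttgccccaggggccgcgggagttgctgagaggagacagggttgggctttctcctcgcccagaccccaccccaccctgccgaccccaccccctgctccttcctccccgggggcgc
GC made up 60.4% of the LAMA3 window and 64.0% of the LAMB3 window, against 82.8%, 70.4% and 79.6% in LAMA5, LAMB1 and LAMC1. All 5 lay above the median of all windows, 58.0%. The CpG dinucleotide occurred 9 and 8 times in the LAMA3 and LAMB3 windows, and 32, 28 and 32 times in the LAMA5, LAMB1 and LAMC1 windows, where the median over 35114 windows of this length was 11. The GC box, found in 42.6% of all windows, matched once each in LAMA3 and LAMB3, 5 times in LAMA5, 4 times in LAMB1 and 3 times in LAMC1. The AP-1 motif, in 4.20% of all windows, matched in LAMA3 alone of the 5 windows, 125 and 69 bases before the start. The kappaB consensus matched 3 times in LAMB3, with overlapping matches counted, in none of the other 4 windows, and in 5.21% of all windows. These matches describe letters; binding was not measured.

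Integrins and laminins both changed in the TEFM libraries, in either direction. Of the 21 tested genes, 6 rose, 10 fell and 5 did not pass (edgeR quasi-likelihood test, Benjamini-Hochberg adjusted p under 0.05 over all genes). Across all genes, 43.4% of 14254 tested genes passed, 21.7% higher and 21.7% lower. Of 15 integrins 3 rose, 7 fell and 5 did not pass, with a median log2 fold change (TEFM minus EV) of -0.12. Of 6 laminins 3 rose and 3 fell, with a median of -0.01, where the median of all tested genes was 0.00. The families are small, and no test of one against the other was made. FPKM ranges of the groups did not overlap for 11 of the 15 integrins and 6 of the 6 laminins, against 51.6% of all tested genes. A call together with a log2 difference of 0.5 or more in either direction was reached by 6 of the 21 tested members (ITGB4, ITGA3, LAMB3, ITGA1, ITGA2B and ITGB8) and by 12.6% of all tested genes, and a call with one of 1 or more by 3 of the 21 (ITGB4, ITGA1 and ITGA2B) and by 3.47% of all tested genes.

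**Figure D1:**
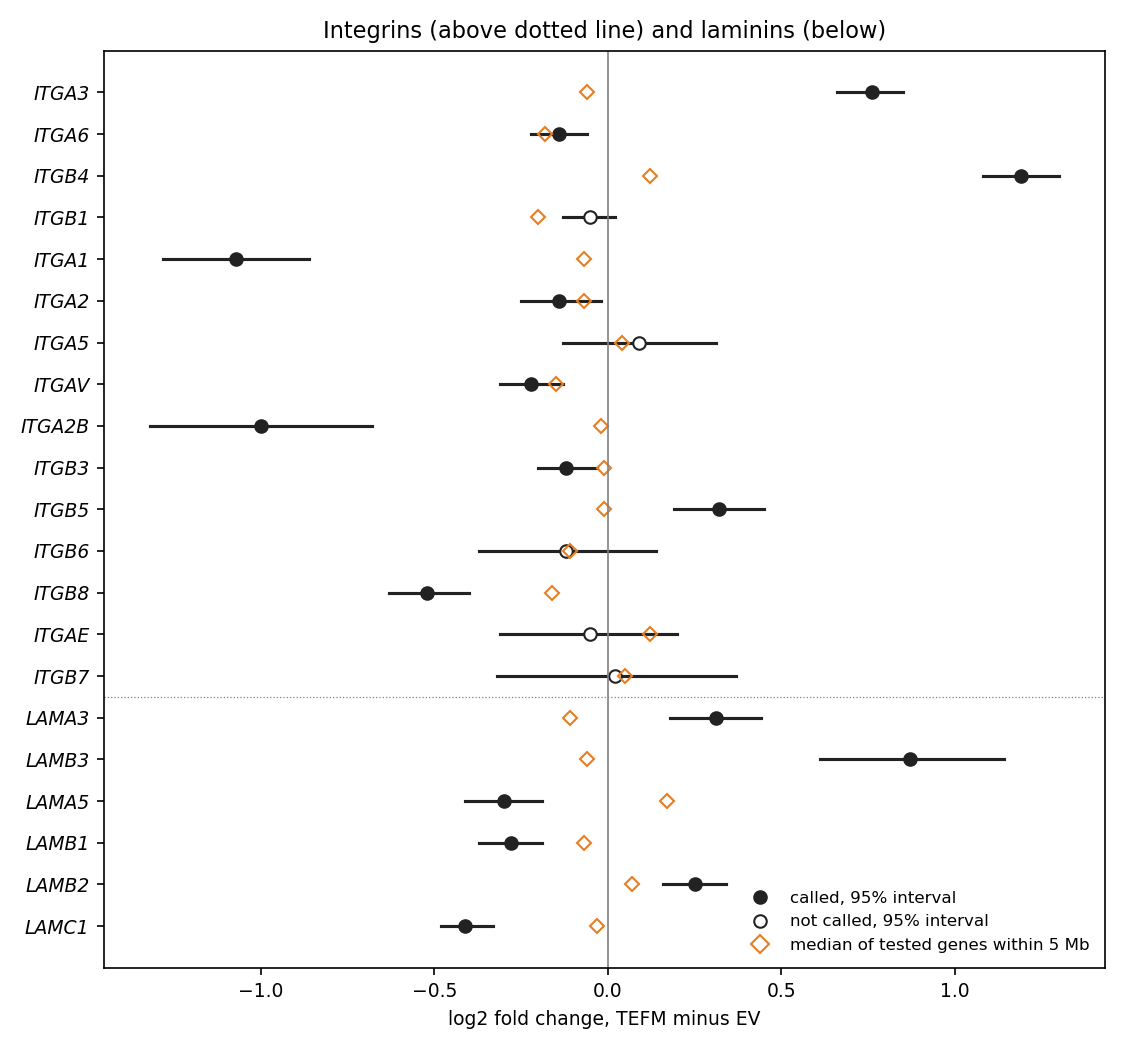
Log2 fold changes (TEFM minus EV, x axis) of the 21 tested genes (y axis) with 95% intervals of the edgeR fit; filled circles passed the test, open circles did not, and diamonds are the median of all tested genes whose start lies within 5 Mb. ITGB4, ITGA3 and LAMB3 lie farthest to the right and ITGA1 and ITGA2B farthest to the left, while the diamonds stay between -0.20 and 0.17.

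Among the 15 tested integrins, the largest rises were in laminin-binding subunits. ITGB4, the subunit with the long cytoplasmic tail that anchors hemidesmosomes to keratin filaments (chromosome 17, 75721328 to 75757818, plus strand), measured 84.9, 82.4 and 82.3 FPKM in the TEFM libraries and 38.7, 33.0 and 40.7 FPKM in the EV libraries. Every TEFM library lay far above every EV library, and the log2 fold change was 1.19 ± 0.0513 SE (edgeR adjusted p = 3.02e-15). ITGA3, the alpha subunit of an epithelial laminin receptor (chromosome 17, 50055968 to 50090481, plus strand), measured 13.7, 13.4 and 13.5 FPKM in TEFM and 8.30, 8.0 and 8.40 FPKM in EV. Its lowest TEFM library lay above its highest EV library, with a log2 fold change of 0.76 ± 0.0462 SE (edgeR adjusted p = 2.04e-12). The tested genes within 5 Mb had medians of 0.12 around ITGB4 and -0.06 around ITGA3, both smaller than the change of the gene itself. GALK1 overlaps ITGB4 on the opposite strand and held counts worth 2.86% of those of ITGB4.

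ITGA6, the alpha partner of ITGB4 (chromosome 2), did not rise with it. It measured 33.7, 34.2 and 34.3 FPKM in TEFM and 38.3, 37.3 and 40.4 FPKM in EV, groups that did not overlap, and its log2 fold change was -0.14 ± 0.0395 SE (edgeR adjusted p = 0.00554). The 59 tested genes within 5 Mb of ITGA6 had a median of -0.18, close to its own value. ITGB1, the beta subunit shared by most matrix receptors, measured 35.2, 36.1 and 36.1 FPKM in TEFM and 39.3, 38.2 and 37.1 FPKM in EV and did not pass (log2 fold change -0.05, 95% interval -0.13 to 0.02; edgeR adjusted p = 0.258), with a median of -0.20 over its 29 tested neighbours. Without composition scaling ITGB1 passed at -0.09 (edgeR adjusted p = 0.0351).

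Ratios between these subunits follow from the changes above, since ITGB4 and ITGA3 rose and ITGA6 fell, each without overlap between the groups. That the ratios below do not overlap either is therefore no further result. The ratio of ITGB4 to ITGA6 FPKM was 2.52, 2.41 and 2.39 in TEFM and 1.01, 0.886 and 1.01 in EV. The ratio of ITGA3 to ITGA6 was 0.407, 0.391 and 0.394 in TEFM and 0.217, 0.215 and 0.208 in EV. Among beta subunits, ITGB4 made up 51.7% ± 0.401 of the summed FPKM in TEFM and 30.8% ± 2.53 in EV (SD, n = 3 each), while ITGB1 made up 22.3% ± 0.622 in TEFM and 31.5% ± 1.25 in EV. The summed FPKM of the 8 beta subunits was 161 ± 2.34 in TEFM and 121 ± 3.20 in EV. ITGB4 alone had a mean of 83.2 in TEFM and 37.5 in EV, a larger rise than that of the sum. Of the other tested beta subunits ITGB5 rose, ITGB8 and ITGB3 fell, and the rest, ITGB1 among them, did not pass. The ITGB1 share is thus taken of a sum raised by ITGB4. The summed FPKM of the 18 alpha subunits was 71.1 ± 0.335 in TEFM and 74.9 ± 1.70 in EV. These sums and ratios are descriptions, and RNA levels do not give the amount of assembled receptor.

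**Figure D2:**
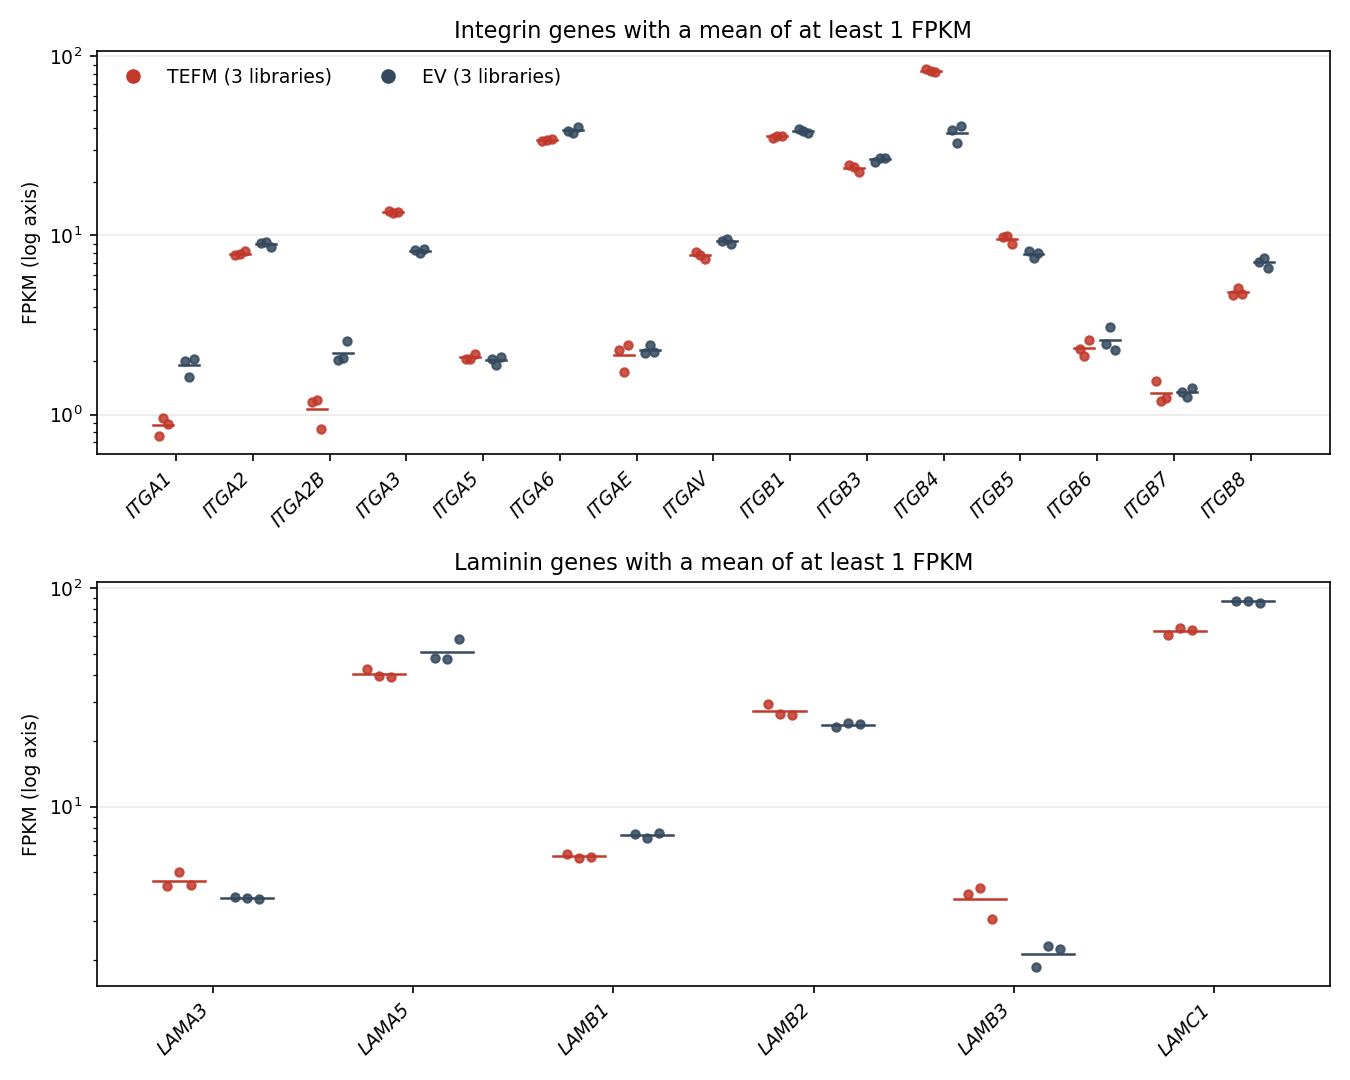
FPKM on a log axis for the 15 tested integrin genes (top) and the 6 tested laminin genes (bottom), with a point for each library, TEFM left of EV, and a line at each mean. The groups part most widely at ITGB4, ITGA3, ITGA1, ITGA2B and LAMB3 and overlap at ITGA5, ITGAE, ITGB6 and ITGB7.

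The tested collagen-binding alpha subunits were lower. ITGA1, which binds basement membrane collagen (chromosome 5, 52787916 to 52959209, plus strand), measured 0.76, 0.96 and 0.89 FPKM in TEFM and 1.98, 1.63 and 2.03 FPKM in EV. No TEFM library reached the lowest EV library, and the log2 fold change was -1.07 ± 0.101 SE (edgeR adjusted p = 5.12e-09). ITGA1 passed the filter on low values only through the EV libraries. PELO, which overlaps ITGA1 on the same strand with 116% of its counts, did not pass (log2 fold change -0.08, edgeR adjusted p = 0.610 with no filter on low values). ITGA2, the next gene along, 30.1 kb away, measured 7.73, 7.90 and 8.15 FPKM in TEFM and 9.04, 9.17 and 8.65 FPKM in EV. It passed narrowly at a log2 fold change of -0.14 ± 0.0554 SE (edgeR adjusted p = 0.0487), and passed in 5 of 16 other settings. The ratio of ITGA1 to ITGA2 FPKM was 0.0983, 0.122 and 0.109 in TEFM and 0.219, 0.178 and 0.235 in EV.

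Receptors that bind the Arg-Gly-Asp motif of fibronectin, vitronectin and latent TGF-beta moved unequally. ITGAV, the alpha subunit shared by several of them, measured 8.05, 7.74 and 7.43 FPKM in TEFM and 9.33, 9.58 and 8.93 FPKM in EV. The groups did not overlap (log2 fold change -0.22, standard error 0.0433, edgeR adjusted p = 1.95e-04), and the 25 tested genes around it had a median of -0.15. ITGA5, the fibronectin receptor subunit, measured 2.05, 2.04 and 2.17 FPKM in TEFM and 2.05, 1.88 and 2.09 FPKM in EV and did not pass (log2 fold change 0.09, 95% interval -0.13 to 0.31; edgeR adjusted p = 0.518). ITGA2B, the platelet fibrinogen receptor subunit, measured 1.17, 1.21 and 0.83 FPKM in TEFM and 2.01, 2.06 and 2.58 FPKM in EV. Its fall of -1.0 on the log2 scale had a standard error of 0.154 (edgeR adjusted p = 1.08e-05).

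The beta subunits that pair with ITGAV split. ITGB8, which with ITGAV activates latent TGF-beta (chromosome 7), measured 4.67, 5.08 and 4.70 FPKM in TEFM and 7.11, 7.53 and 6.62 FPKM in EV. It fell by 0.52 on the log2 scale, with standard error 0.0554 (edgeR adjusted p = 4.43e-08), against a median of -0.16 over its 39 tested neighbours. ITGB5, a vitronectin receptor subunit, measured 9.84, 9.88 and 8.94 FPKM in TEFM and 8.14, 7.47 and 8.01 FPKM in EV and rose (log2 fold change 0.32, standard error 0.0618, edgeR adjusted p = 1.75e-04). ITGB3, present at 24.9, 24.0 and 22.7 FPKM in TEFM and 25.7, 27.0 and 27.2 FPKM in EV, fell by 0.12 on the log2 scale (standard error 0.0423, edgeR adjusted p = 0.0276) and passed in 11 of 16 other settings. ITGB6, an epithelial subunit, measured 2.32, 2.12 and 2.62 FPKM in TEFM and 2.47, 3.08 and 2.30 FPKM in EV, ranges that overlap (log2 fold change -0.12, 95% interval -0.37 to 0.14; edgeR adjusted p = 0.478). ITGB8 and ITGB5 thus moved in opposite directions, their FPKM ratio being 0.505 ± 0.0268 in TEFM and 0.903 ± 0.0942 in EV (SD, n = 3 each).

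Of 7 integrins typical of leukocytes, 5 were barely detected and 2 were tested. ITGAL, ITGAM, ITGAX, ITGAD and ITGB2 each stayed below 1 FPKM, with at most 16 counts in any library. ITGAE measured 2.29, 1.72 and 2.44 FPKM in TEFM and 2.20, 2.45 and 2.23 FPKM in EV, and ITGB7 1.54, 1.19 and 1.23 FPKM in TEFM and 1.34, 1.25 and 1.41 FPKM in EV. Neither passed, with 95% intervals of the log2 fold change from -0.31 to 0.20 for ITGAE (edgeR adjusted p = 0.758) and from -0.32 to 0.37 for ITGB7 (edgeR adjusted p = 0.928). Both overlap a gene on the other strand that held more counts than they did: HASPIN at 137% of the ITGAE counts and ZNF740 at 1611% of the ITGB7 counts. The sources used here do not say whether the libraries keep strand, so the reads of such partners cannot be told apart.

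LAMA3 and LAMB3, alpha and beta chains found at epithelial anchoring sites, were both higher. LAMB3 (chromosome 1, 209614870 to 209652425, minus strand), whose promoter is printed above, measured 3.99, 4.24 and 3.06 FPKM in TEFM and 1.84, 2.31 and 2.23 FPKM in EV. All TEFM libraries exceeded all EV libraries (log2 fold change 0.87, standard error 0.130, edgeR adjusted p = 6.28e-06). LAMA3 measured 4.33, 5.05 and 4.36 FPKM in TEFM and 3.86, 3.81 and 3.77 FPKM in EV (log2 fold change 0.31, standard error 0.0634, edgeR adjusted p = 3.56e-04).

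The chains of laminin 511, a major laminin of epithelial basement membranes, were all lower. LAMC1, the gamma chain of most laminins and the member with the highest level in EV (chromosome 1, 183023420 to 183145592, plus strand), measured 61.0, 65.3 and 64.4 FPKM in TEFM and 87.5, 87.4 and 85.3 FPKM in EV. The groups were far apart, with a log2 fold change of -0.41 ± 0.0368 SE (edgeR adjusted p = 2.51e-09). LAMA5, the main alpha chain in these cells, measured 42.8, 39.6 and 39.1 FPKM in TEFM and 48.0, 47.1 and 58.4 FPKM in EV, the last EV library standing above the other two. Its log2 fold change was -0.30 ± 0.0545 SE (edgeR adjusted p = 8.70e-05), and with robust dispersions it did not pass (edgeR adjusted p = 0.0600). LAMB1 measured 6.08, 5.80 and 5.89 FPKM in TEFM and 7.47, 7.15 and 7.55 FPKM in EV (log2 fold change -0.28, standard error 0.0446, edgeR adjusted p = 1.63e-05). DLD, which overlaps LAMB1 on the opposite strand with 147% of its counts, did not pass (log2 fold change -0.07, edgeR adjusted p = 0.328 with no filter on low values), while ENSG00000273055, also opposite LAMB1 with counts worth 1.62% of it, was lower (-0.87, edgeR adjusted p = 0.0234 in the same fit). ADRM1 across from LAMA5 did not pass (-0.03, edgeR adjusted p = 0.754 with no filter on low values).

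LAMB2, the beta chain that replaces LAMB1 in laminin 521, was higher. It measured 29.5, 26.6 and 26.2 FPKM in TEFM and 23.0, 24.1 and 24.0 FPKM in EV (log2 fold change 0.25, standard error 0.0450, edgeR adjusted p = 6.81e-05). The ratio of LAMB2 to LAMB1 was 4.86, 4.58 and 4.44 in TEFM and 3.08, 3.37 and 3.18 in EV. Other ratios between alternative chains were also higher in TEFM, LAMB3 to LAMB1 at 0.636 ± 0.107 in TEFM and 0.288 ± 0.0389 in EV, and LAMA3 to LAMA5 at 0.113 ± 0.0133 in TEFM and 0.0753 ± 0.00929 in EV (SD, n = 3 each). Each of these ratios sets a chain that rose over a chain that fell, so its direction follows from the changes of the chains. In TEFM libraries the chains of laminin 511 had a summed FPKM of 110 ± 0.655. For LAMA3 and LAMB3, counted without a gamma chain, it was 8.34 ± 0.935. In EV libraries the same sums were 145 ± 5.19 and 5.94 ± 0.216. These sums cover unlike numbers of chains, and LAMA5 and LAMC1 also belong to laminin 521. LAMB1, which tells 511 from 521, had a mean of 5.92 FPKM in TEFM and 7.39 in EV. The LAMB2 mean was 27.4 FPKM in TEFM and 23.7 in EV.

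**Figure D3:**
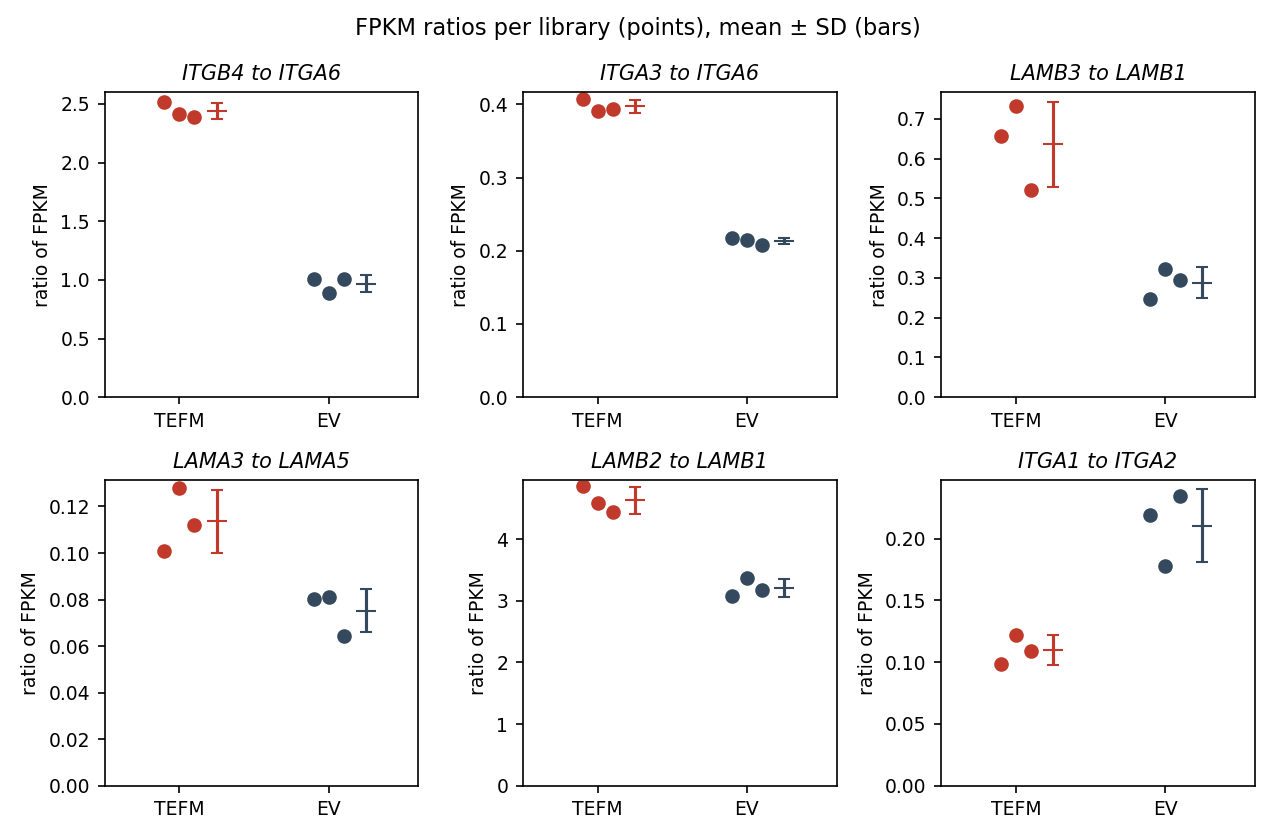
Ratios of FPKM between paired or alternative subunits in each library (points, TEFM left of EV), with the mean and SD over 3 libraries beside them. The TEFM and EV points do not overlap in any of the 6 panels, with ITGB4 to ITGA6 at 2.44 ± 0.0688 in TEFM and 0.969 ± 0.0716 in EV. In every panel but ITGA1 to ITGA2 this follows from the numerator gene being higher and the denominator gene lower, each without overlap.

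The remaining 16 genes had a mean below 1 FPKM and were left out of the main test. In the fit with no filter on low values, where 18.7% of 37256 genes passed (9.46% higher and 9.23% lower), 5 of them passed, 3 higher and 2 lower. These shares include the genes that reached the filter, and the share among genes below it was not computed. LAMA4, the alpha chain of endothelial and stromal laminins, had 9, 2 and 8 counts in TEFM and 73, 89 and 69 in EV, with no overlap between the groups. Its log2 fold change of -3.54 (standard error 0.338, edgeR adjusted p = 7.61e-24) stood beside summed levels of 0.390 CPM (counts per library, scaled to depth) in TEFM and 4.71 CPM in EV. LAMA2, the alpha chain of muscle basement membranes, had 141, 171 and 123 counts in TEFM and 68, 74 and 90 in EV (log2 fold change 0.94, standard error 0.170, edgeR adjusted p = 6.16e-07).

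ITGA4, a subunit of receptors for fibronectin and VCAM1, had 31, 21 and 16 counts in TEFM and 43, 46 and 69 in EV (log2 fold change -1.18, standard error 0.286, edgeR adjusted p = 3.48e-04). ITGA7, the muscle laminin receptor subunit, had 117, 133 and 108 counts in TEFM and 74, 90 and 78 in EV (log2 fold change 0.60, standard error 0.177, edgeR adjusted p = 0.00539). METTL7B, which overlaps ITGA7 on the opposite strand, had 176, 182 and 180 counts in TEFM and 48, 46 and 65 in EV (log2 fold change 1.80); its part in the ITGA7 value was not tested. ITGA9 had 25, 21 and 5 counts in TEFM and 12, 2 and 1 in EV, which overlap, although the fit called it higher (log2 fold change 1.77, standard error 0.543, edgeR adjusted p = 0.00780), and its antisense partner ITGA9-AS1 held 441% of its counts. Of the other low genes, ITGA10 had 116 counts over the TEFM libraries and 112 over the EV libraries, and LAMA1 and ITGA8 had at most 2 counts in any library.

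**Figure D4:**
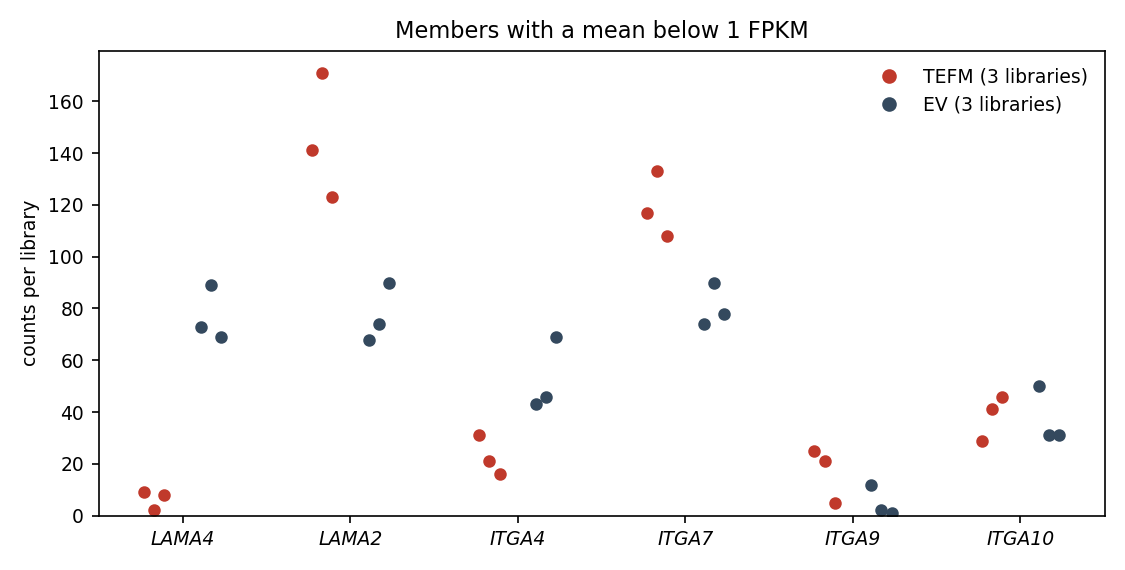
Raw counts per library (y axis) of the 5 genes below a mean of 1 FPKM that passed with no filter on low values, and of ITGA10, which did not; TEFM points stand left of EV points. LAMA4 is at 2 to 9 counts in TEFM and 69 to 89 in EV, and LAMA2 shows the opposite order.

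Other genes of matrix adhesion moved both ways. Of 28 tested other matrix ligands 8 rose and 11 fell (median log2 fold change -0.10). Higher were MFGE8, an Arg-Gly-Asp ligand of ITGAV receptors (20.2 ± 0.535 FPKM in TEFM and 6.92 ± 0.696 in EV), NID2, a nidogen that links laminin to collagen networks (5.34 ± 0.303 in TEFM and 1.26 ± 0.157 in EV), and FBLN1, a fibulin (13.9 ± 0.947 in TEFM and 9.56 ± 0.307 in EV; SD, n = 3 each here and below). Lower were AGRN, a basement membrane proteoglycan that binds laminin (16.0 ± 1.11 in TEFM and 26.3 ± 2.65 in EV), TNC, a tenascin (9.58 ± 0.505 in TEFM and 14.7 ± 0.140 in EV), and TGFBI, an integrin ligand (0.537 ± 0.0289 in TEFM and 1.72 ± 0.127 in EV). TGFBI reached the level filter only through the EV libraries. NID2 had a log2 fold change of 2.12 ± 0.105 SE (edgeR adjusted p = 4.82e-14).

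Of 8 tested genes listed as laminin receptors that are not integrins, or as parts of their complexes, 4 rose and 3 fell (median 0.09). DAG1, the dystroglycan gene, was at 56.9 ± 0.539 FPKM in TEFM and 43.8 ± 3.23 in EV, and SDC1, a syndecan, at 24.1 ± 1.08 in TEFM and 16.8 ± 1.96 in EV. The hyaluronan receptor gene CD44 rose too (log2 fold change 0.80), while SDC4 (-0.22) fell. SGCE (-0.56) and SGCB (-0.29), which also fell, are sarcoglycan genes of the dystroglycan complex and not laminin receptors themselves. Of 7 tested hemidesmosome partners 3 rose and 2 fell (median 0.04). The plakin gene PLEC, whose product binds the ITGB4 tail, rose by a log2 fold change of 0.20 ± 0.0467 SE (edgeR adjusted p = 9.55e-04), and KRT8 (0.53) and KRT18 (0.35) rose. KRT5, a basal keratin gene, fell to 3.31 ± 0.217 FPKM in TEFM, against 6.60 ± 0.472 in EV, and DST, another plakin gene, fell by 0.46 on the log2 scale, having reached the level filter only through the EV libraries (0.883 ± 0.0289 in TEFM and 1.25 ± 0.0153 in EV).

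Inside the cell, 4 of 14 tested genes that act on integrin activation, for or against it, rose and 4 fell (median -0.01). Without EV replicate 1 or TEFM replicate 2, 2 were called lower. Kindlin genes split, with FERMT1, the epithelial kindlin, at 1.72 ± 0.0902 FPKM in TEFM and 0.987 ± 0.0577 in EV and FERMT2 at 7.26 ± 0.442 in TEFM and 11.3 ± 0.269 in EV. The EV mean of FERMT1 lies below the level filter, which it passed through the TEFM libraries. FLNA, a filamin that competes with talin for beta tails, rose (log2 fold change 0.47), as did ITGB1BP1 (0.38), and RAP1B (-0.38) and KRIT1 (-0.24) fell. Of 21 focal adhesion and actin linkers 8 rose and 6 fell (median 0.06), ACTN4 (0.63), TNS1 (0.55) and CSRP1 (0.28) higher and TNS2 (-0.55), TES (-0.50) and ENAH (-0.34) lower. Of 26 signalling genes 10 rose and 5 fell (median 0.08), with 6 higher without TEFM replicate 1, and 3 higher and 6 lower with limma. The adaptor NEDD9 was at 13.6 ± 0.315 FPKM in TEFM and 7.83 ± 0.426 in EV, SRC rose by a log2 fold change of 0.44 and CSK by 0.21, whereas LPXN (-1.03), the focal adhesion kinase gene PTK2 (-0.20) and YES1 (-0.17) fell.

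Of 12 tested tetraspanins and lateral partners 8 rose and 1 fell (median 0.28); 2 were lower without EV replicate 2 or TEFM replicate 1. CD9 was at 67.6 ± 1.64 FPKM in TEFM and 48.5 ± 0.645 in EV, CAV1, the caveolin gene, at 2.06 ± 0.382 in TEFM and 0.823 ± 0.127 in EV, and CD81 rose by a log2 fold change of 0.37. CAV1 passed the level filter only through the TEFM libraries. SLC3A2, an amino acid transporter subunit that binds beta tails, fell by 0.54 on the log2 scale. Of 14 tested integrin ligands of the cell surface 6 rose and 2 fell (median 0.16), with L1CAM, a neural adhesion molecule and Arg-Gly-Asp ligand, at 4.07 ± 0.0306 FPKM in TEFM and 0.713 ± 0.142 in EV, likewise past the filter only through TEFM. CDH1 (0.36) and ADAM10 (0.18) rose, and TGFB3 (-0.57) and ADAM9 (-0.14) fell. Each named gene passed the edgeR test with adjustment over all tested genes; the counts stand beside the 21.7% of all genes that passed in each direction.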

How the data were processed

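Per the labels' protocols, RNA was extracted with TRIzol, selected with oligo(dT) beads, fragmented and primed at random. Per the file headers, the deposited table gives raw counts per gene and FPKM for each library; in each library 100% of the deposited FPKM values equalled counts scaled by exonic gene size and library total within 0.0051. The submitters' processing notes name cutadapt 1.9.1 and hg19, but 99.90% of the gene IDs also found in GENCODE v29 lie over its GRCh38 positions; coordinates are the table's own. The sources used here do not name the aligner or the counting tool.

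The 14254 genes with a mean of at least 1 FPKM over the 6 libraries entered a quasi-likelihood test in edgeR 4.0.16 (R 4.3.3) of the deposited counts, scaled by TMM, with two-sided p-values and a Benjamini-Hochberg threshold of 0.05 over that whole set. Standard errors (SE) and 95% intervals were derived from the F statistic. The code was run on simulated counts in which few genes differed, in either direction. That setting does not cover data in which 43.4% of tested genes passed, so error rates for such data were not tested. With 3 against 3 libraries an exact two-sided permutation test cannot go below p = 0.1, so none is given. Within groups, chi-square values over degrees of freedom ran from 2.18 to 4.86, so no library pair agreed within sampling noise. Alternatives covered scaling, filters, DESeq2 1.42.0, limma 3.58.1 on log2(FPKM + 1) and log2(FPKM + 0.1), robust dispersions, a replicate block, and leaving out libraries in turn. Every integrin or laminin gene could be named; from each list of other genes, up to 3 called higher and 3 called lower with the smallest p were named. A gene of these families is not reported here and is left out of their counts and medians. The members, lists and groupings by role were chosen with earlier results of these data known.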

Additional observations from a re-analysis of the deposited data

How the results depend on the processing

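Over 16 alternatives, 13 of the 16 called genes kept direction and call in each one that tested them; ITGA2, ITGB3 and LAMA5 did not. Integrins called higher numbered 3 except with no filter on low values (5), and 5 to 6 were called lower with 1 library left out, against 7. Laminins called higher numbered 1 when a mean of 5 FPKM was required and 3 with any 1 library left out; 3 were called lower in each of those fits. The integrin median was -0.16 without composition scaling, -0.04 with no filter, and -0.15 to -0.06 with 1 library left out. The laminin median, -0.01, was -0.05 without composition scaling and with limma at pseudocount 0.1, -0.14 with no filter, -0.05 to 0.03 with 1 library left out, and -0.30 where the filter asked for a mean of 5 FPKM; LAMA3 and LAMB3 drop out at the stricter filter. Genes called higher numbered 2046 there because fewer genes were tested. Direction turned for 3 genes that did not pass in any setting: ITGB7 (-0.02 without composition scaling, -0.01 and -0.02 with limma, -0.02 without EV replicate 2, and -0.10 to 0.09 over the fits with 1 library left out, the lowest without TEFM replicate 1), ITGB6 (-0.20 to 0.01 over those fits, the highest without EV replicate 2) and ITGAE (0.08 without TEFM replicate 2); the cause was not tested. Leaving out composition scaling gave 2581 genes higher and 3678 lower over the whole table; limma at pseudocount 1 gave 2186 and 3105. With limma at either pseudocount, list counts fell to 5 linkers and 3 signalling genes higher, and to 2 activation genes and 1 hemidesmosome partner lower. Requiring a mean of 5 FPKM, fewer list genes were tested: 4 matrix ligands, 2 activation genes and 3 tetraspanins or partners were higher, and 7 matrix ligands and 1 surface ligand lower, while KRT5 and DST dropped out. Lower tetraspanins or partners numbered 2 without composition scaling and with no filter. The replicate block gave 2986 genes higher and 2949 lower and took the ITGA2 call away (edgeR adjusted p = 0.0715). Same-numbered libraries had correlations of deviations of -0.075, 0.047 and -0.051, and pairs with other numbers -0.076 to 0.119. With 3 libraries per group these values cannot decide whether same-numbered libraries were handled together.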

Other observations

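LAMB4, beside LAMB1 at a distance of 20.3 kb, had 1, 9 and 2 counts in TEFM and 2, 5 and 2 in EV. LAMC3 had 6, 10 and 8 counts in TEFM and 5, 10 and 12 in EV. LAMC1-AS1, on the strand opposite LAMC1, had 42, 40 and 41 counts in TEFM and 62, 51 and 82 in EV. It did not pass in the fit with no filter on low values (log2 fold change -0.62, edgeR adjusted p = 0.0536).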
